A study of Homo sapiens with 36 samples.

Results

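Serum and YAP responsive genes and Kruppel-like factors, 9 genes in all, were followed through every library, without a measure of YAP activity. These genes were the secreted matrix proteins CCN1, CCN2 and THBS1, the YAP targets ANKRD1 and AMOTL2, and the Kruppel-like factors KLF4, KLF5, KLF6 and KLF10. They were chosen by name, with earlier results of these data known. All 9 are among the 59607 features of the total RNA tables, and 6 of them are among the 60095 features of the polyA tables, where CCN2, ANKRD1 and KLF10 were not analysed. All members found passed the filter on low counts, ANKRD1 at levels close to the floor of the data.

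The cells were HCT116, an epithelial line from a human colon carcinoma, and every line used constitutively expressed TIR1, the plant F-box protein through which auxin marks a degron-tagged protein for destruction. The DIS3-AID line is 1 CRISPR clone in which the exosome ribonuclease DIS3 carries the auxin-inducible degron; control cells express TIR1 without the tag. The 4 groups were DIS3-AID cells with 500 uM auxin for 1 h, untreated DIS3-AID cells, control cells with the same auxin treatment, and untreated control cells. Each group had 3 libraries of ribosome-depleted total RNA from the cytoplasm, 3 from chromatin and 3 of polyA-enriched RNA from the cytoplasm, 36 libraries in all. The series text calls the cytoplasmic triplicates technical, so p-values measure the spread between these samples, which may be smaller than that between cultures. With 1 clone per line, the tag and the clone cannot be told apart in any comparison between lines, and auxin can act on DIS3-AID cells through DIS3 or otherwise, for which the auxin-treated control cells are the comparison.

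The Hippo kinases hold the coactivators YAP and TAZ in the cytoplasm. When the kinases are off, YAP enters the nucleus and, with TEAD proteins bound to DNA, switches on short-lived mRNAs such as CCN1, CCN2 and ANKRD1; serum and actin tension drive many of the same genes through SRF. Kruppel-like factors are zinc finger proteins that bind GC-rich and CACCC sequences. In the gut KLF5 marks the dividing crypt cells, KLF4 the differentiated cells above them, and KLF6 and KLF10 are induced early by growth factors and TGF-beta.

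Promoter sequence was examined because the members moved together in several comparisons. RefSeq windows (GRCh38.p14) of 300 bases around annotated starts existed for 7 of the 9 genes, 9 windows in all. CCN1 and KLF10 had no window, so their promoters were not searched. The TEAD motif GGAATG, counted with its reverse complement CATTCC, occurred in windows of 4 of the 7 genes (CCN2, THBS1, ANKRD1 and AMOTL2) and in 14.0% of all 35116 windows. The GC box GGGCGG, counted with CCGCCC and allowed to overlap itself, occurred in windows of 6 of the 7 (not ANKRD1) and in 45.0% of all windows. Neither the SRF-binding CArG box (1.29% of all windows) nor CCCCACCC on either strand (11.1%) was found in a member's window. The 250 bases before the start of CCN2 (chr6:131951373-131951622, minus strand) and of THBS1 (chr15:39580829-39581078, plus strand) are shown, since these are the secreted targets whose windows hold the motif; capitals mark GGAATG, which begins 169, 104 and 95 bases before the CCN2 start and 46 bases before the THBS1 start.
CCN2: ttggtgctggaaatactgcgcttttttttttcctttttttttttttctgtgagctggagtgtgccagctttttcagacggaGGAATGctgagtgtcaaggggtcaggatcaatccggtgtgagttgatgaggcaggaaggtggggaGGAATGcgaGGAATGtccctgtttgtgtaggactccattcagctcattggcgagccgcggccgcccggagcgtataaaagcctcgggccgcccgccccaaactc
THBS1: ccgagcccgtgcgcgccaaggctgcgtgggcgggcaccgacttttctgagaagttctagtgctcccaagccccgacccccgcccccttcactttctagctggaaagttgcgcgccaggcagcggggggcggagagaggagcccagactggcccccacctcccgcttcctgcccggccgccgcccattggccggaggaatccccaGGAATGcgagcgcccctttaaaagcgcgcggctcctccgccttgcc
A match of these letters describes the window and is not evidence of binding.

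Library totals were 59450421 to 122574347 counts in the cytoplasm, 50278746 to 139011514 in chromatin and 25859633 to 33068609 in polyA libraries. DIS3 mRNA in the cytoplasm was 45.2 to 46.9 CPM (counts scaled to a common library total) in DIS3-AID cells with auxin, 47.1 to 52.1 in DIS3-AID cells, 90.1 to 96.5 in control cells with auxin and 87.6 to 92.4 in control cells; auxin removes the protein, so mRNA does not check the depletion. All 8 colon epithelial markers looked for were present. Of 6 fibroblast markers, the summed level was 14.7 CPM in control cytoplasm replicate 1 with auxin and 8.92 to 12.4 CPM in the other 11 libraries of that fraction, mostly COL1A1; the part of these markers in the results was not tested. CPM values throughout are scaled by the trimmed mean of M values (TMM), log2 changes carry their standard error, and "called" means an adjusted p under 0.05 from edgeR's quasi-likelihood test with Benjamini-Hochberg adjustment over all features of the table.

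Auxin lowered 8 of the 9 genes in the cytoplasm of DIS3-AID cells, which describes what changed in these cells within 1 h of auxin. Over all 23027 features 13.2% were called lower, and over protein-coding genes 20.0%. The members' median log2 change was -0.37, against -0.051 over all features and -0.1 over protein-coding genes. For the 8 called genes the 3 libraries with auxin all lay below the 3 without, as did those of 19.0% of all features. In bulk RNA, less transcript per cell and fewer cells expressing it cannot be told apart.

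The log2 changes of the secreted factors were the largest of the members called. CCN1, a matricellular integrin ligand, had 61.0, 63.3 and 65.5 CPM in DIS3-AID cells with auxin, against 91.0, 110 and 117 CPM in untreated DIS3-AID cells, a log2 change of -0.75 ± 0.13 (adjusted p = 0.000826). The treated libraries differed little among themselves and none reached the lowest untreated value. CCN2, its profibrotic paralog, had 5.57, 5.42 and 5.78 CPM with auxin and 8.06, 10.9 and 10.9 CPM without (-0.83 ± 0.23, adjusted p = 0.0201). At these lower counts the call depended on the libraries: it was lost when any of 5 of the 6 was left out, with adjusted p between 0.0598 (without DIS3-AID with auxin replicate 1) and 0.0921 (without DIS3-AID replicate 2) and changes between -0.84 and -0.73. THBS1, thrombospondin 1, an adhesive glycoprotein that activates TGF-beta, had 37.9, 39.0 and 35.1 CPM with auxin and 48.9, 61.4 and 60.8 CPM without (-0.61 ± 0.12, adjusted p = 0.00129).

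Of the other YAP targets, AMOTL2, an angiomotin-like scaffold that binds YAP and restrains it, had 193, 182 and 186 CPM in DIS3-AID cells with auxin and 207, 235 and 244 CPM without. Its change of -0.29 ± 0.10 stood just inside the threshold (adjusted p = 0.0462); it was -0.19 with adjusted p = 0.215 with library sizes alone, and the call was also lost without any of 5 of the 6 libraries, all but DIS3-AID replicate 1, with adjusted p from 0.0759 to 0.215. ANKRD1, an ankyrin repeat protein best known from stretched heart muscle, was barely detected, at 0.16 ± 0.06 CPM with auxin and 0.115 ± 0.089 CPM without (SD, n = 3 each), and was not called (0.45 ± 0.48, adjusted p = 0.482 by edgeR).

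All 4 Kruppel-like factors fell. KLF10, a TGF-beta-inducible repressor, had 126, 124 and 119 CPM in DIS3-AID cells with auxin, against 155, 201 and 173 CPM without, a log2 change of -0.52 ± 0.08 (adjusted p = 8.22e-05). The treated values were tight and the untreated ones spread over a wider range. KLF5 had 61.1, 62.0 and 52.2 CPM with auxin and 68.4, 83.2 and 75.2 CPM without (-0.37 ± 0.10, adjusted p = 0.00658). KLF4 had 26.3, 26.1 and 25.7 CPM with auxin and 32.9, 29.8 and 32.5 CPM without (-0.28 ± 0.06, adjusted p = 0.000776). KLF6, a widely expressed activator, had 143, 127 and 127 CPM with auxin and 167, 158 and 158 CPM without (-0.28 ± 0.05, adjusted p = 0.000325). The smaller log2 changes of KLF4 and KLF6 thus came with narrow groups that did not overlap.

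**Figure D1:**
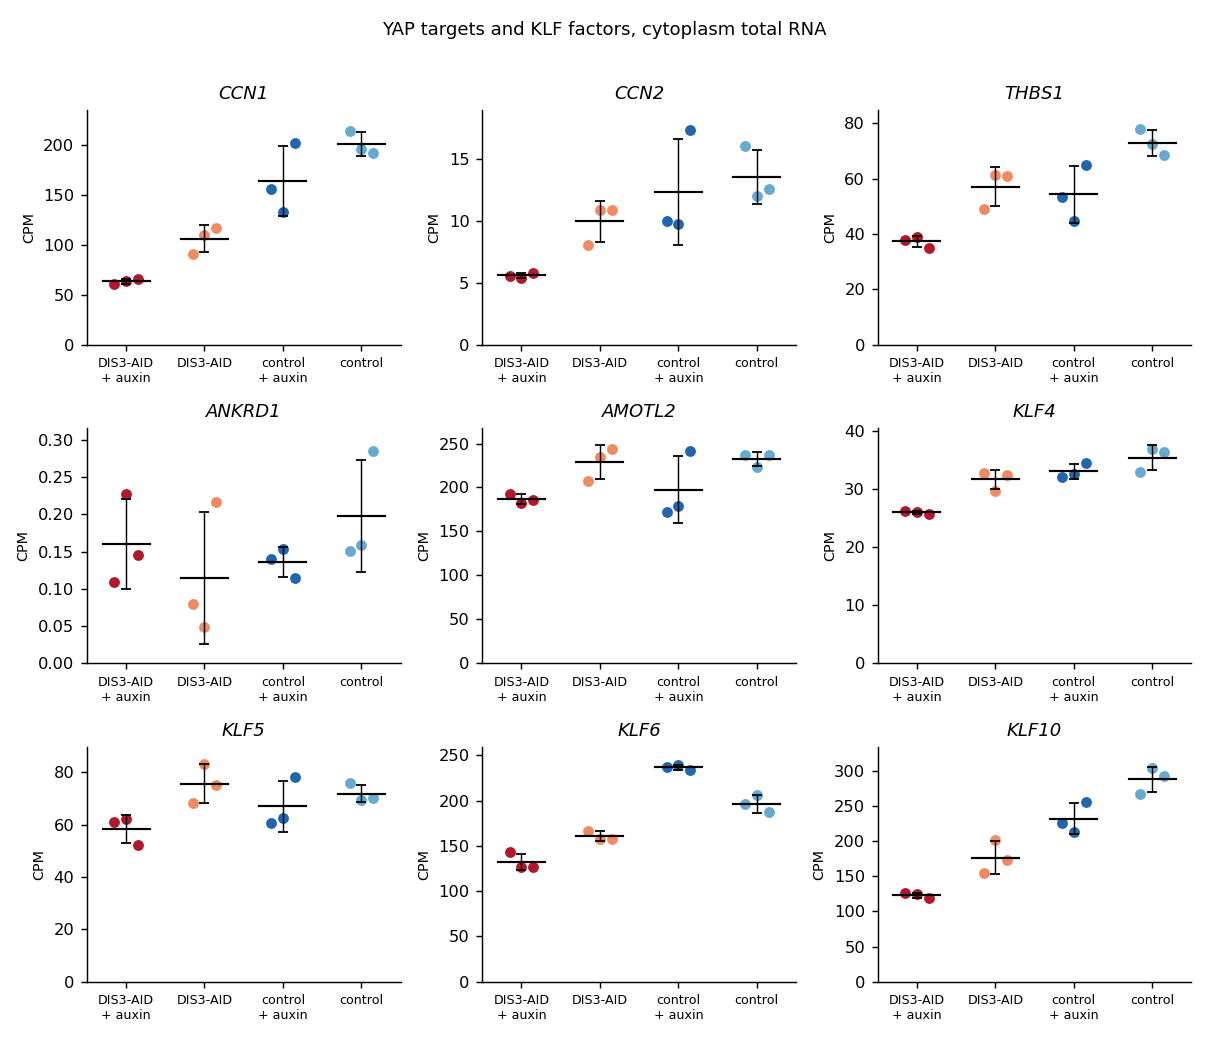
TMM-scaled CPM (linear axes from 0) of the 9 genes in cytoplasm total RNA, 1 point per library, with the mean (bar) and SD (whisker) of 3 libraries in each of the 4 groups. DIS3-AID cells with auxin hold the lowest mean for every gene but ANKRD1, and KLF6 is highest in control cells with auxin.

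These changes are relative to the rest of each library. With TMM scaling 4854 features were called higher and 3040 lower after auxin in DIS3-AID cytoplasm; with library sizes alone 5581 were higher and 681 lower, and the median over all features moved to 0.049. CCN1, CCN2, THBS1, KLF4, KLF5, KLF6 and KLF10 remained called lower under both scalings. The 3 endothelial markers (PECAM1, VWF, CDH5) moved the other way, with a summed 2.62 to 3.09 CPM in DIS3-AID cells with auxin and 0.823 to 1.16 CPM in untreated DIS3-AID cells, mostly VWF; none was at 0 throughout a group, and their part in the result was not tested.

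Control cells given auxin called 0 of the 9 genes in the cytoplasm, where edgeR called 0.0478% of all features; 5 of the 9 had an unadjusted p under 0.05, and DESeq2 called 2. Over all 23027 features 1413 had an unadjusted p under 0.05, and DESeq2 called 75. The change was nevertheless below 0 for 8 of the 9 genes. The members' median was -0.24, against -0.0 over all features and -0.37 for auxin in DIS3-AID cells. KLF6 had the smallest unadjusted p, with 237, 239 and 234 CPM in control cells with auxin and 196, 206 and 187 CPM in control cells, groups that did not overlap (0.27 ± 0.05, adjusted p = 0.0955). The same-numbered control libraries deviated together, and with the replicate number as a block KLF6 was called (0.27, adjusted p = 0.0133), as it was by DESeq2 (0.28, adjusted p = 0.00101).

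CCN1 had 156, 133 and 202 CPM in control cells with auxin and 214, 196 and 192 CPM without (-0.30 ± 0.13, adjusted p = 0.806). THBS1 had 53.5, 44.6 and 65.1 CPM with auxin and 78.0, 72.5 and 68.5 CPM without (-0.43 ± 0.12, adjusted p = 0.411; DESeq2 -0.41, adjusted p = 0.0498). Replicate 3 was the highest of the auxin-treated control libraries for 7 of the 8 members other than ANKRD1, and KLF6 was the exception. Without that library THBS1 (-0.57, adjusted p = 0.0265) and AMOTL2 (-0.41, adjusted p = 0.0148) were called lower, whereas without replicate 2 THBS1 was at -0.29 and without replicate 1 AMOTL2 was at -0.15. KLF10 had 226, 213 and 256 CPM with auxin and 267, 303 and 292 CPM without (-0.31 ± 0.08, adjusted p = 0.317). CCN2 was not called and stood at -0.46 to 0.02 with 1 library left out. Replicate 1, with the highest fibroblast sum, changed no member's call when left out.

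The difference between the responses was tested itself. In the cytoplasm KLF6 was the 1 member called, with a response in DIS3-AID cells 0.55 log2 units below that in control cells (-0.55 ± 0.07, adjusted p = 1.47e-05), where 3.31% of all features were called lower. The calls over all features were 4079 higher and 237 lower with library sizes alone, against 3696 and 763 with TMM. CCN1 had a difference of -0.45 ± 0.19 (adjusted p = 0.124), which DESeq2 called (-0.46, adjusted p = 0.0302) and which edgeR called without control cells with auxin replicate 2 (-0.57, adjusted p = 0.0232), and which was -0.25 without control cells with auxin replicate 3. For KLF10 the difference was -0.21 (95% interval -0.46 to 0.04), for THBS1 -0.19 (-0.55 to 0.18) and for AMOTL2 -0.05 (-0.37 to 0.26), and these 3 intervals include 0. ANKRD1 was the member with a difference above 0 (0.61 to 1.74 with 1 library left out). CCN2 had the most negative difference of all members, at -0.69, and was not called. With 1 library left out it ranged from -0.82 to -0.34. KLF4 and KLF5 were not called either.

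Before any auxin the DIS3-AID line already differed from the control line in the cytoplasm. This comparison and the auxin response share the untreated DIS3-AID libraries, on opposite sides. Lower in DIS3-AID cells were 4 of the 9 genes, where 12.4% of all features and 17.6% of protein-coding genes were called lower. CCN1 averaged 106 ± 13.7 CPM in DIS3-AID cells and 201 ± 11.5 CPM in control cells (SD, n = 3 each; log2 difference -0.92 ± 0.13, edgeR adjusted p = 0.000473). KLF10 averaged 176 ± 23.1 CPM in DIS3-AID cells and 287 ± 18.4 CPM in control cells (-0.71 ± 0.08, edgeR adjusted p = 1.7e-05). KLF6 averaged 161 ± 5.59 CPM in DIS3-AID cells and 197 ± 9.29 CPM in control cells (-0.29 ± 0.05, edgeR adjusted p = 0.000751). THBS1 was called at -0.36 ± 0.12 (adjusted p = 0.0471) and lost the call when any of the 6 libraries was left out (adjusted p 0.0655 to 0.191) and under RLE size factors (-0.32, adjusted p = 0.0662) or library sizes alone (-0.34, adjusted p = 0.0512). KLF4 (-0.16, adjusted p = 0.0529) was called without control replicate 1 (-0.19, adjusted p = 0.0472), and ANKRD1 (-0.79, adjusted p = 0.224) without DIS3-AID replicate 3 (-1.55, adjusted p = 0.0327). Without DIS3-AID replicate 2 these differences were -0.10 for KLF4 and -0.40 for ANKRD1. KLF5 (0.07 ± 0.10) and AMOTL2 (-0.02 ± 0.10) overlapped between the lines. CCN2 was not called, with differences of -0.53 to -0.29 when 1 library was left out. With RLE size factors 2743 features were called higher and 2209 lower, against 2227 and 2858 with TMM.

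With auxin 6 of the 9 were lower in DIS3-AID than in control cytoplasm, where 28.6% of all features and 41.6% of protein-coding genes were called lower: CCN1 (-1.37 ± 0.13), CCN2 (-1.13 ± 0.23), KLF10 (-0.92 ± 0.08), KLF6 (-0.84 ± 0.05), THBS1 (-0.54 ± 0.12) and KLF4 (-0.34 ± 0.06), with adjusted p from 1.56e-10 for KLF6 to 0.00171 for CCN2. Without control cells with auxin replicate 3 the THBS1 difference was -0.35 and still called. CCN1 thus stood at 0.387 times its level in control cells with auxin. KLF5, AMOTL2 and ANKRD1 were not called (-0.20, -0.08 and 0.16). Over all features 6520 were higher and 6581 lower with TMM, and 7877 higher and 3931 lower with library sizes alone, which put the median over all features at 0.084, against -0.025 with TMM.

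**Figure D2:**
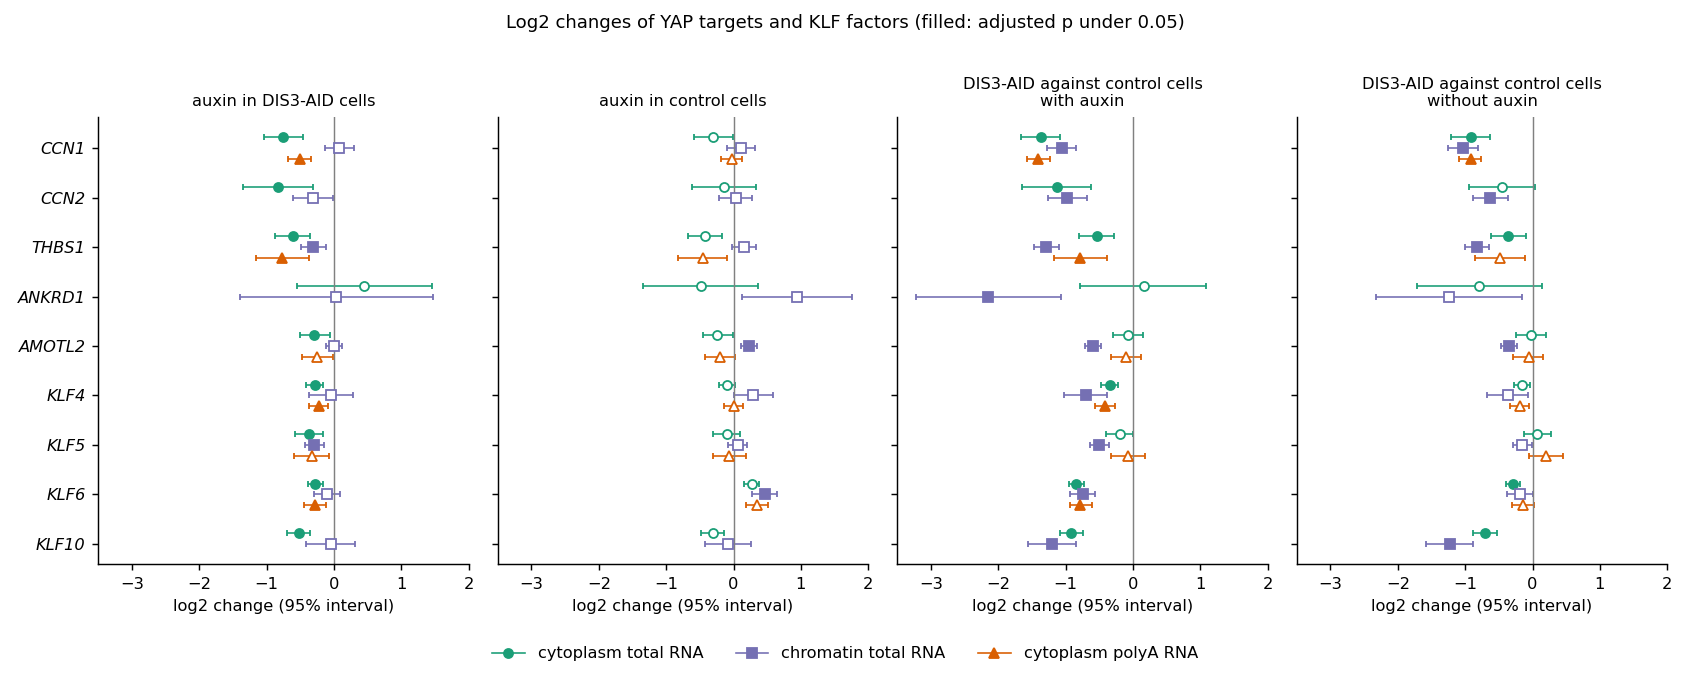
Log2 changes with 95% intervals for each gene in cytoplasm total, chromatin total and cytoplasm polyA RNA, in 4 comparisons, with filled symbols where the edgeR adjusted p is under 0.05. Auxin in DIS3-AID cells moved the cytoplasmic values to the left while most chromatin values stayed near 0, and the chromatin values lie left of 0 for the line comparison both with and without auxin.

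Chromatin gave another pattern. There auxin lowered 2 of the 9 genes in DIS3-AID cells, where 9.54% of all features were called lower; the members' median log2 change was -0.05, against 0.004 over all features. THBS1 had 37.3, 36.5 and 36.3 CPM in chromatin of DIS3-AID cells with auxin and 47.4, 43.5 and 45.1 CPM without, so the groups did not overlap (-0.31 ± 0.09, adjusted p = 0.0173). KLF5 had 21.8, 20.6 and 24.1 CPM with auxin and 26.0, 27.9 and 27.3 CPM without (-0.29 ± 0.07, adjusted p = 0.00482). The THBS1 call was lost without DIS3-AID replicate 1 (adjusted p = 0.0525), DIS3-AID with auxin replicate 2 (0.0529) or replicate 3 (0.0509), and the KLF5 call held. CCN1 did not follow its cytoplasmic fall, with 17.1, 14.3 and 15.5 CPM with auxin and 15.8, 15.1 and 13.4 CPM without, overlapping groups with a change of 0.08 (95% interval -0.14 to 0.30). KLF10 likewise overlapped, at 13.9, 14.1 and 18.5 CPM with auxin and 19.6, 12.6 and 15.9 CPM without. CCN2 was not called, at -0.37 to -0.25 with 1 library left out. Scaled by library sizes alone, 2139 features were called higher and 3351 lower, against 2741 and 2382 with TMM.

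In control chromatin auxin raised 2 of the 9 genes, where 9.02% of all features were called higher. KLF6 had 58.1, 51.9 and 41.2 CPM in control cells with auxin and 37.6, 38.6 and 34.3 CPM without (0.46 ± 0.09, adjusted p = 0.00179), again the highest of the 4 groups. AMOTL2 had 147, 139 and 132 CPM with auxin and 118, 121 and 118 CPM without (0.23 ± 0.06, adjusted p = 0.00932), a call lost without control cells with auxin replicate 1 (0.19, adjusted p = 0.0674). That replicate was the highest of its group for 7 of 8 members. Without control cells with auxin replicate 3, THBS1 was called higher too (0.26, adjusted p = 0.0101), and without control replicate 2 KLF4 was (0.46, adjusted p = 0.0215). THBS1 was at 0.05 without control cells with auxin replicate 1, and KLF4 at 0.13 without control replicate 3.

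The chromatin response to auxin was lower in DIS3-AID than in control cells for 3 of the 9 genes, where 9.20% of all features were called lower. These were KLF6 (-0.56 ± 0.13, adjusted p = 0.00513), THBS1 (-0.46 ± 0.12, adjusted p = 0.0137) and KLF5 (-0.35 ± 0.09, adjusted p = 0.0144, and 0.0527 without DIS3-AID with auxin replicate 2). AMOTL2 stood just outside (-0.23, adjusted p = 0.0543) and was called by DESeq2 (adjusted p = 0.0449), with library sizes alone (-0.30, adjusted p = 0.0152), and without control cells with auxin replicate 3 (0.0176) or DIS3-AID with auxin replicate 1 (0.0286). Over all features 1513 were higher and 3193 lower with library sizes alone, against 2131 and 2298 with TMM. KLF6 was the gene called in this test in both fractions.

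On chromatin without auxin 5 of the 9 genes were lower in DIS3-AID cells, where 17.4% of all features and 21.9% of protein-coding genes were called lower. KLF10 had 19.6, 12.6 and 15.9 CPM in DIS3-AID chromatin and 34.0, 42.0 and 37.4 CPM in control chromatin (-1.23 ± 0.16, adjusted p = 9.17e-05). CCN1 had 15.8, 15.1 and 13.4 CPM in DIS3-AID chromatin and 31.4, 32.0 and 27.5 CPM in control chromatin (-1.03 ± 0.10, adjusted p = 1.14e-06). Both genes were thus at less than 0.5 times the control level, with no overlap. THBS1 had 47.4, 43.5 and 45.1 CPM in DIS3-AID chromatin and 85.7, 83.2 and 73.0 CPM in control chromatin (-0.83 ± 0.09, adjusted p = 1.16e-06). CCN2 had 1.31, 1.46 and 1.22 CPM in DIS3-AID chromatin and 2.29, 1.95 and 1.92 CPM in control chromatin (-0.63 ± 0.12, adjusted p = 0.000698). AMOTL2, level between the lines in the cytoplasm, had 98.0, 91.5 and 89.6 CPM in DIS3-AID chromatin and 118, 121 and 118 CPM in control chromatin (-0.35 ± 0.06, adjusted p = 0.000129). KLF4, KLF5 and KLF6 were not called (-0.37, -0.15 and -0.19). KLF4 had an adjusted p of 0.0543, was called without control replicate 3 (-0.53, adjusted p = 0.0122) and stood at -0.20 without control replicate 2. Scaled by library sizes alone, 4788 features were higher and 3359 lower, against 3785 and 4335 with TMM.

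With auxin all 9 genes were lower in DIS3-AID than in control chromatin, where 20.4% of all features and 27.4% of protein-coding genes were called lower. The DIS3-AID libraries lay below the control libraries with no overlap for each of the 9, and for 23.6% of all features. THBS1 had 37.3, 36.5 and 36.3 CPM in DIS3-AID chromatin with auxin and 102, 90.9 and 75.3 CPM in control chromatin with auxin (-1.29 ± 0.09, adjusted p = 3.17e-09). The others ran from KLF10 (-1.20 ± 0.16) and CCN1 (-1.06 ± 0.10) through CCN2 (-0.98 ± 0.14), KLF6 (-0.75 ± 0.09), KLF4 (-0.70 ± 0.15) and AMOTL2 (-0.59 ± 0.06) to KLF5 (-0.50 ± 0.07), with adjusted p of at most 0.00101. ANKRD1, which has few reads, had raw counts of 1, 5 and 9 in DIS3-AID chromatin with auxin and 23, 26 and 22 in control chromatin with auxin (-2.15 ± 0.51, adjusted p = 0.00267). In untreated cells its counts were 10, 2 and 6 in DIS3-AID chromatin and 10, 15 and 32 in control chromatin, overlapping once scaled for depth (-1.24 ± 0.52, adjusted p = 0.0751, and 0.0226 without control replicate 1).

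**Figure D3:**
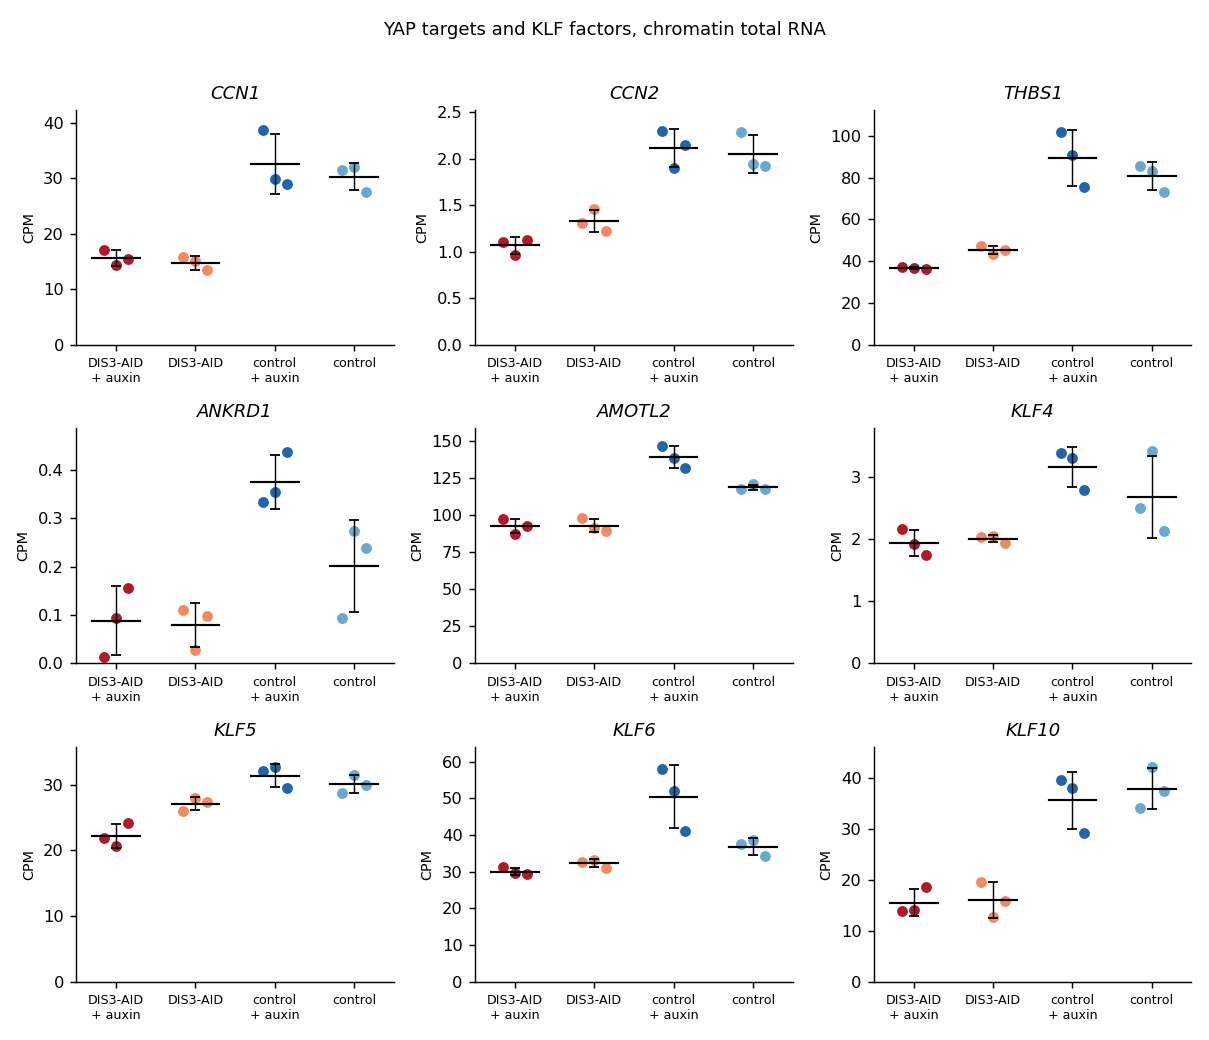
TMM-scaled CPM (linear axes from 0) of the 9 genes in chromatin total RNA, 1 point per library, with the mean (bar) and SD (whisker) of 3 libraries per group. The 3 DIS3-AID libraries with auxin lie below the 3 control libraries with auxin for every gene, and KLF6 and AMOTL2 are higher in control cells with auxin than in control cells.

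The polyA libraries cover the cytoplasm with another library type. Same-numbered polyA and total RNA libraries of DIS3-AID cells deviated together (r 0.298 to 0.527 over 6 pairs), so these sets may not be independent. The polyA tables list nearly only genes that have a non-coding transcript model: 99.1% of coding genes with such a model are present and 99.2% of those without are absent. A member's polyA count may therefore cover only part of its exons (non-coding models span 551 of the 2455 exon bases of CCN1), and its level was not compared with that in total RNA. In DIS3-AID cells auxin lowered 4 of the 6 genes, where 3.88% of all features and 6.10% of protein-coding genes were called lower. CCN1 had 29.3, 31.9 and 32.1 CPM with auxin and 40.1, 47.4 and 45.5 CPM without (-0.51 ± 0.08, adjusted p = 5.51e-05). THBS1 had 14.6, 14.5 and 15.1 CPM with auxin and 20.6, 27.2 and 27.6 CPM without (-0.77 ± 0.18, adjusted p = 0.0118). For all 6 genes the treated libraries lay below the untreated ones, as did those of 11.5% of all features.

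KLF6 had 181, 160 and 158 CPM in DIS3-AID polyA RNA with auxin and 217, 201 and 188 CPM without (-0.28 ± 0.08, adjusted p = 0.0158). KLF4 had 46.3, 43.6 and 46.5 CPM with auxin and 58.7, 49.5 and 51.8 CPM without (-0.23 ± 0.07, adjusted p = 0.0188). With library sizes alone both calls were lost (KLF6 -0.23, adjusted p = 0.121; KLF4 -0.18, adjusted p = 0.0911), when 2351 features were higher and 331 lower against 2190 and 646 with TMM. They were also lost without DIS3-AID replicate 1 (KLF6 adjusted p = 0.0546, KLF4 0.117) or DIS3-AID with auxin replicate 2 (0.0743 and 0.0787), and the KLF6 call without DIS3-AID with auxin replicate 3 (0.0679). KLF5 (-0.33, adjusted p = 0.0707) and AMOTL2 (-0.25, adjusted p = 0.147) were called by DESeq2, with adjusted p = 0.00787 and 0.0243, and KLF5 by edgeR without DIS3-AID replicate 1 (0.0476).

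**Figure D4:**
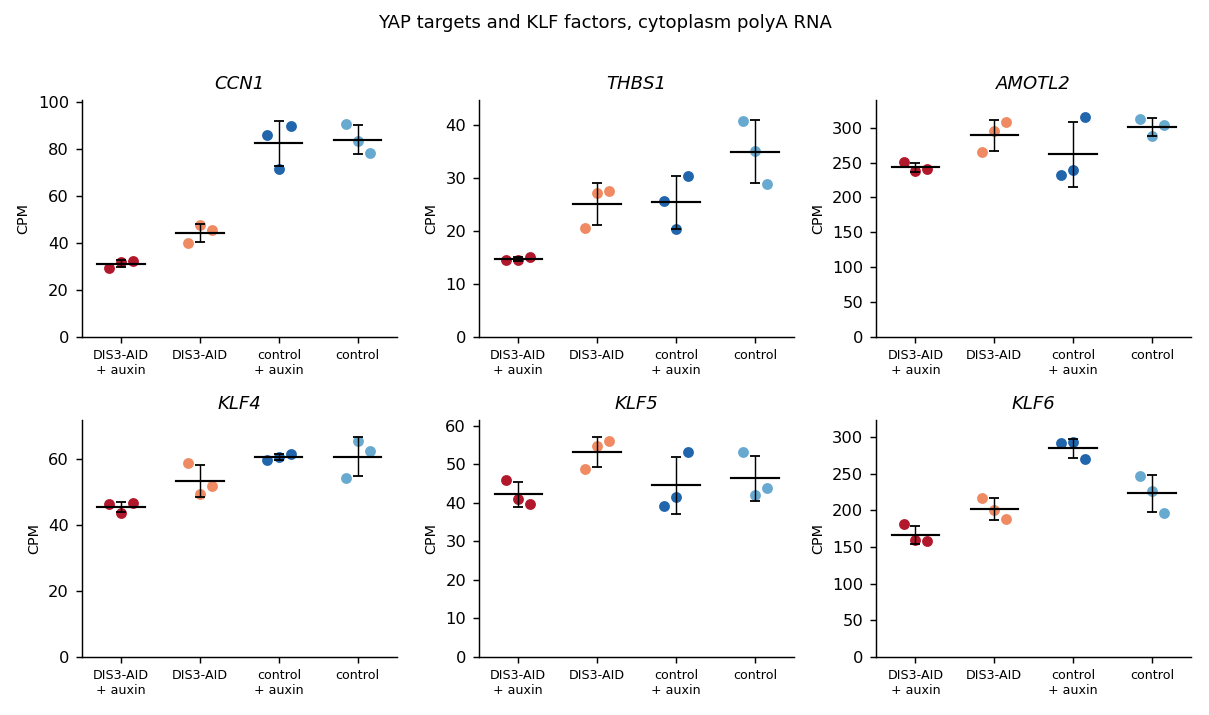
TMM-scaled CPM (linear axes from 0) of the 6 genes found in the cytoplasm polyA tables, 1 point per library, with the mean (bar) and SD (whisker) of 3 libraries per group. CCN1 is at 29.3 to 47.4 CPM in the 6 DIS3-AID libraries and at 71.5 to 90.5 CPM in the 6 control libraries, and KLF6 is highest in control cells with auxin.

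Auxin in control cells called 0 of the 6 genes in polyA RNA by edgeR, where 0.0480% of all features were called; 2 of the 6 had an unadjusted p under 0.05 and DESeq2 called 1. Over all 16651 features 871 had an unadjusted p under 0.05, and DESeq2 called 27. The member it called was KLF6, with 292, 293 and 270 CPM in control cells with auxin and 247, 227 and 196 CPM without (0.35 ± 0.08, adjusted p = 0.149; DESeq2 0.35, adjusted p = 0.00889). Without control cells with auxin replicate 3, the highest of its group for 5 of the 6 genes, AMOTL2 was called lower (-0.36, adjusted p = 0.00327), and without replicate 1 of that group it was at -0.13. The responses of the lines differed for KLF6 (-0.63 ± 0.11, adjusted p = 0.00139) and CCN1 (-0.48 ± 0.11, adjusted p = 0.00963), where 0.985% of all features were called lower.

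Without auxin CCN1 was the 1 of 6 genes lower in DIS3-AID polyA RNA, where 5.65% of all features were called lower: 40.1, 47.4 and 45.5 CPM in DIS3-AID cells, against 90.5, 83.4 and 78.2 CPM in control cells (-0.92 ± 0.08, adjusted p = 1.99e-08). The calls gained by leaving out a library were THBS1 (-0.62, adjusted p = 0.0371) and KLF6 (-0.25, adjusted p = 0.0171), both without control replicate 3 (KLF6 was at -0.07 without control replicate 1), and KLF4 (-0.27 without control replicate 1, adjusted p = 0.00697, or without DIS3-AID replicate 1, adjusted p = 0.0179). With auxin 4 of the 6 were lower in DIS3-AID cells, where 15.9% of all features were: CCN1 (-1.41 ± 0.08), THBS1 (-0.79 ± 0.18), KLF6 (-0.78 ± 0.08) and KLF4 (-0.41 ± 0.07). No member's auxin response or line difference was called as different between polyA and total RNA, and by edgeR 0 of 6 had an unadjusted p under 0.05 in either test, 0 by DESeq2, where 8.29% and 0.262% of all features were called. Over all 18669 features 5546 had an unadjusted p under 0.05 for the response and 1623 for the line difference, and DESeq2 called 911 and 207. The widest interval for the responses was that of THBS1, -0.51 to 0.45. Over all features the split for the response was 987 higher and 561 lower with TMM, 107 and 582 with RLE size factors and 72 and 737 with library sizes alone, with medians of 0.159, 0.075 and -0.005; for the line difference it was 33 and 16 with TMM and 11 and 23 with library sizes alone.

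Fractions were then set against each other on a common scale. In untreated DIS3-AID cells 8 of the 9 genes were lower in chromatin than in cytoplasm, where 43.2% of all features and 54.4% of protein-coding genes were called lower. The same 8 were lower in chromatin of untreated control cells, where 44.0% of all features and 55.8% of protein-coding genes were. The median over coding genes was -0.456 in DIS3-AID and -0.558 in control cells. KLF4 was the most cytoplasmic, with log2 differences of -4.61 ± 0.10 in DIS3-AID cells and -4.42 ± 0.10 in control cells, followed by KLF10 (-4.09 ± 0.16 and -3.57 ± 0.16), CCN2 (-3.53 ± 0.20 and -3.36 ± 0.19), CCN1 (-3.48 ± 0.14 and -3.37 ± 0.14) and KLF6 (-2.96 ± 0.09 and -3.06 ± 0.09). KLF5 (-2.12 ± 0.08 and -1.90 ± 0.08) and AMOTL2 (-1.93 ± 0.08 and -1.61 ± 0.08) stood between these and THBS1, whose differences were -0.97 ± 0.11 in DIS3-AID cells and -0.50 ± 0.11 in control cells. ANKRD1 was not called in either (-1.08 and -0.63); in DIS3-AID cells it was called without cytoplasm replicate 2 (-1.44, adjusted p = 0.0224) or chromatin replicate 1 (-1.49, adjusted p = 0.0478) and stood at -0.33 without cytoplasm replicate 3. With library sizes alone the THBS1 difference in control cells turned to 0.16 (adjusted p = 0.172). That setting moved the median over all features to 0.822 in DIS3-AID and 0.755 in control cells, against 0.137 and 0.096 with TMM, and gave 15609 higher and 9197 lower in DIS3-AID and 15260 and 9554 in control cells, against 12657 and 11839, and 12665 and 12066.

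The auxin response of DIS3-AID cells was higher in chromatin than in cytoplasm for 6 of the 9 genes, where 22.1% of all features and 36.3% of protein-coding genes were called higher: CCN1 (1.01 ± 0.19, adjusted p = 0.000376), KLF10 (0.65 ± 0.21, adjusted p = 0.0248), THBS1 (0.49 ± 0.16, adjusted p = 0.0184), AMOTL2 (0.47 ± 0.11, adjusted p = 0.000979), KLF4 (0.42 ± 0.15, adjusted p = 0.0294) and KLF6 (0.36 ± 0.12, adjusted p = 0.016). The median over all features was itself 0.16 and over coding genes 0.233. Control cells showed a gap in the same direction: the members' median change with auxin was -0.24 in the cytoplasm and 0.15 on chromatin. In DIS3-AID cells these medians were -0.37 and -0.05. These medians come from separate fits of each fraction. The gap between fractions was not tested in control cells, and whether it differs between the lines was not tested. With library sizes alone the median over all features was -0.169, the split was 379 higher and 5520 lower against 6051 and 3029 with TMM, and CCN1 was the 1 member called; with RLE size factors CCN1, AMOTL2 and KLF6 were. DESeq2 did not call KLF4 (0.36, adjusted p = 0.0602). CCN2 (0.70, adjusted p = 0.111) was called without DIS3-AID cytoplasm replicate 1 (0.0457), and KLF5 (0.27, adjusted p = 0.066) without that library (0.0294), DIS3-AID cytoplasm with auxin replicate 1 (0.033) or DIS3-AID chromatin with auxin replicate 2 (0.0397). The calls of KLF10, KLF4, KLF6 and THBS1 were each lost without at least 1 library. For KLF10 these were DIS3-AID cytoplasm replicate 2 (adjusted p = 0.0661), DIS3-AID chromatin replicates 2 (0.0586) and 3 (0.0583) and DIS3-AID chromatin with auxin replicate 3 (0.0767). For KLF4 they were DIS3-AID cytoplasm replicate 1 (0.0589), DIS3-AID cytoplasm with auxin replicate 2 (0.0595), DIS3-AID chromatin replicate 3 (0.0783) and DIS3-AID chromatin with auxin replicate 1 (0.146). For KLF6 they were DIS3-AID cytoplasm with auxin replicate 2 (0.0572) and DIS3-AID chromatin replicate 3 (0.0551), and for THBS1 DIS3-AID cytoplasm replicate 2 (0.0534).

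The line difference without auxin was larger on chromatin for 2 of the 9 genes, THBS1 (-0.47 ± 0.15, adjusted p = 0.0469) and AMOTL2 (-0.33 ± 0.11, adjusted p = 0.0386), where 6.61% of all features were called lower. Each lost the call in 9 of the 12 fits that left out 1 library, THBS1 with adjusted p from 0.057 to 0.133 and AMOTL2 from 0.0599 to 0.105: both without control cytoplasm replicates 2 and 3, DIS3-AID cytoplasm replicates 2 and 3, control chromatin replicates 1 and 2 and DIS3-AID chromatin replicates 2 and 3, THBS1 also without DIS3-AID chromatin replicate 1 and AMOTL2 without control chromatin replicate 3. Both calls were lost too with library sizes alone (-0.44, adjusted p = 0.0721, and -0.30, adjusted p = 0.0790). KLF10 (-0.52, adjusted p = 0.11) was called without DIS3-AID chromatin replicate 1 (-0.70, adjusted p = 0.024). For CCN1 the difference was -0.10 (95% interval -0.49 to 0.28). With RLE size factors 1529 features were higher and 2440 lower, against 1804 and 1813 with TMM.

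Per kilobase of exon, the order of levels changed between groups. In cytoplasm of DIS3-AID cells with auxin AMOTL2 (31.3 ± 0.863 CPM per kb) and KLF10 (30.7 ± 0.896) led and did not differ beyond their spread, followed by CCN1 (25.8 ± 0.92), KLF6 (21.6 ± 1.44), KLF5 (15.0 ± 1.40), KLF4 (7.12), THBS1 (4.08), CCN2 (2.39) and ANKRD1 (0.0809), all SD over 3 libraries. In control cytoplasm CCN1 (81.8 ± 4.69 CPM per kb) and KLF10 (71.8 ± 4.59) led, well above AMOTL2 (38.8 ± 1.40) and KLF6 (32.0 ± 1.51). In untreated DIS3-AID cytoplasm KLF10 (44.0 ± 5.77 CPM per kb), CCN1 (43.3 ± 5.58) and AMOTL2 (38.2 ± 3.24) overlapped. On chromatin AMOTL2 was the highest in all 4 groups, at 15.5 CPM per kb in DIS3-AID cells with auxin, 15.5 in DIS3-AID cells, 23.3 in control cells with auxin and 19.9 in control cells, with KLF5 at 6.95 or CCN1 at 6.36 to 13.2 next.

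Transcripts that start or lie beside the members were examined because DIS3 is known to degrade promoter-associated RNA. AC092807.3 (chr1:85482281-85578250, minus strand, a lincRNA whose annotated start is 2511 bases from that of CCN1 at chr1:85580761-85583962, plus strand) rose in the cytoplasm of DIS3-AID cells with auxin, at 5.74, 5.99 and 6.15 CPM, against 0.874, 0.884 and 0.863 CPM without auxin (2.77 ± 0.10, edgeR adjusted p = 6.34e-14). The control libraries stayed at 0.656 to 0.813 CPM. The lincRNA lies wholly within DDAH1 (chr1:85318481-85578363) on the same strand, so reads in stretches they share cannot be told apart; DDAH1 was not called there (0.07 ± 0.06, edgeR adjusted p = 0.352). The annotated start of DDAH1 is nearer to that of CCN1, at 2398 bases, so the lincRNA is not known to belong to the CCN1 promoter. On chromatin the lincRNA did not rise, at 11.2, 9.85 and 10.4 CPM with auxin and 11.4, 11.5 and 11.0 CPM without (-0.10, edgeR adjusted p = 0.324), and it was lower in DIS3-AID than in control chromatin without auxin (-0.30 ± 0.06, edgeR adjusted p = 0.00181). In polyA RNA it was called higher with auxin in DIS3-AID cells (3.01 ± 0.50, edgeR adjusted p = 3.13e-05) at 0.645 to 1.12 CPM, against 0.0355 to 0.172 CPM without.

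AP002851.1, annotated as a bidirectional promoter lncRNA whose start lies 562 bases from that of KLF10 on the other strand, gave a like picture. It had 3.03, 2.91 and 3.72 CPM in cytoplasm of DIS3-AID cells with auxin and 0.784, 1.02 and 1.16 CPM without (1.72 ± 0.14, edgeR adjusted p = 6.97e-09), and 0.883 to 1.13 CPM in the 6 control libraries. On chromatin it had 4.14, 3.97 and 4.41 CPM with auxin and 3.55, 3.42 and 3.75 CPM without (0.23, edgeR adjusted p = 0.0809). Like KLF10 it was lower in DIS3-AID than in control chromatin, by -0.66 ± 0.08 (edgeR adjusted p = 1.1e-05) without auxin and -0.40 ± 0.09 (edgeR adjusted p = 0.00119) with auxin. In polyA RNA it was not called (0.55, edgeR adjusted p = 0.136). Both lncRNAs were called higher in cytoplasm of DIS3-AID cells with auxin under every scaling, DESeq2, no filter and the block. With TMM 21.1% of all features were called higher there. AL133346.1, antisense to CCN2 with a start 427 bases away, had 0.241 to 0.306 CPM there, against 0.157 to 0.189 CPM without auxin. On chromatin it overlapped, at 2.39 to 2.61 CPM with auxin and 2.36 to 2.90 CPM without. RPL39P5, which overlaps AMOTL2, was lower in that cytoplasm with auxin (23.7 to 29.8 CPM) than without (32.2 to 39.2 CPM).

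**Figure D5:**
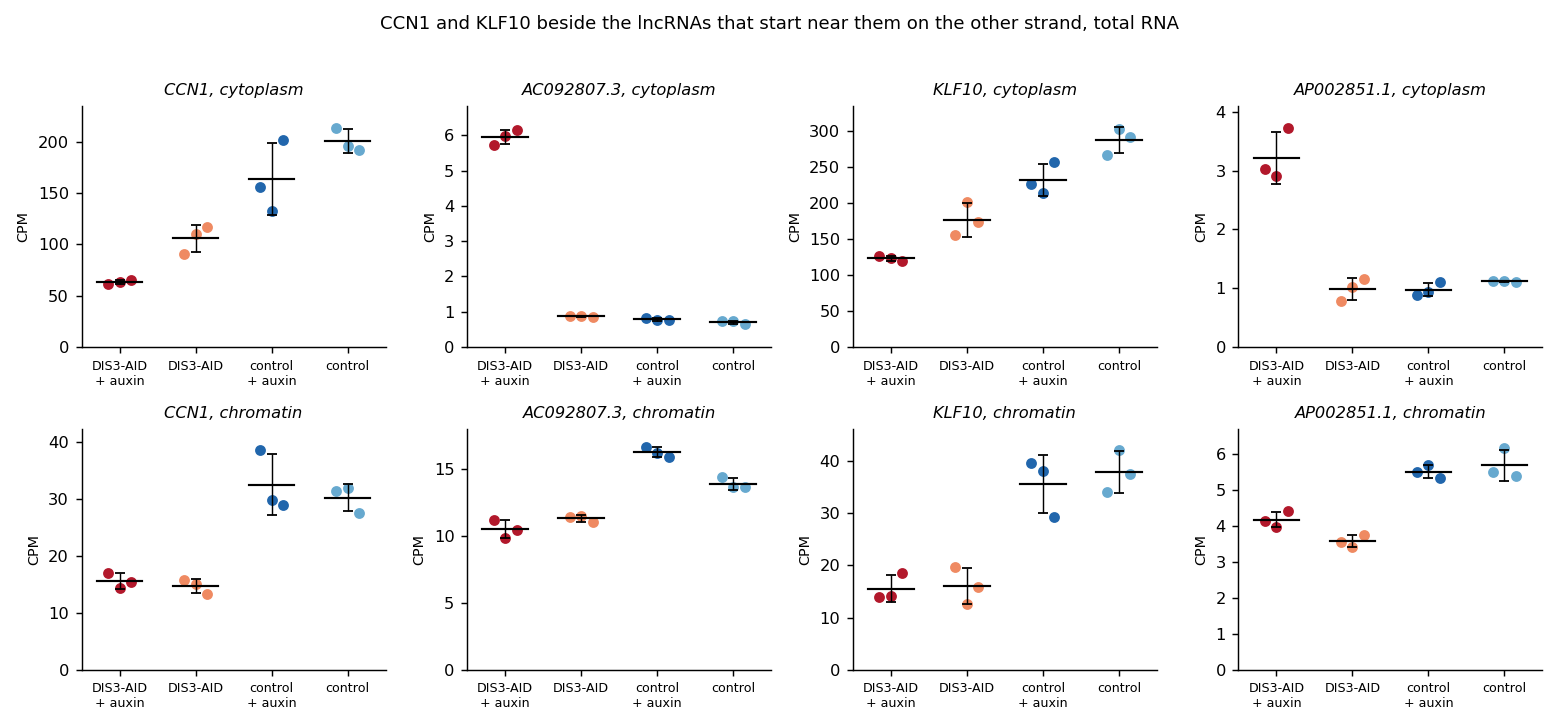
TMM-scaled CPM (linear axes from 0) of CCN1 and KLF10 and of the lncRNAs that start near them on the other strand, in cytoplasm (top) and chromatin (bottom) total RNA, 1 point per library with the mean (bar) and SD (whisker) of 3. In the cytoplasm the lncRNAs are highest in DIS3-AID cells with auxin where CCN1 and KLF10 are lowest, and on chromatin all 4 are lower in DIS3-AID than in control cells.

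Other features within 5000 bases of a member were compared between the lines on chromatin. THBS1-IT1, an RNA annotated within a THBS1 intron on the same strand, had 2.36, 1.97 and 2.02 CPM in untreated DIS3-AID chromatin and 4.93, 4.03 and 3.45 CPM in control chromatin (-0.96 ± 0.14, edgeR adjusted p = 4.63e-05), close to THBS1 itself (-0.83). FSIP1, a gene on the opposite strand that shares 448 exon bases with THBS1, was also lower there (-0.80 ± 0.10, edgeR adjusted p = 1.19e-05). DDAH1 beside CCN1 (-0.34 ± 0.06) and the pseudogene RPL39P5, which shares 187 exon bases with AMOTL2 on the same strand (-0.47 ± 0.10), were lower as well. Over all features 17.4% were called lower there. AL133346.1 overlapped between the lines, at 2.36 to 2.90 CPM in DIS3-AID and 2.63 to 3.15 CPM in control chromatin. So did RPP30 beside ANKRD1, at 30.7 to 36.5 and 36.2 to 39.7 CPM. Whether counting used strand is not given in the sources used here, so reads of THBS1 and of FSIP1 or THBS1-AS1 (411 shared bases), and of CCN2 and its antisense AL133346.1 (195 shared bases), cannot be told apart within the shared stretches.

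Other genes of the same pathways were taken as lists. After auxin in DIS3-AID cytoplasm, 4 of 19 other YAP and TEAD targets were called: the kinase NUAK2 (-0.85 ± 0.21), GADD45A (-0.29 ± 0.06) and 1 more were lower and the RNA-binding protein RBMS3 (0.58 ± 0.19) was higher, where 13.2% of all features were lower and 21.1% higher, with a list median of -0.03 that was 0.07 with library sizes alone. Of 23 Hippo pathway genes 5 were called lower (AMOT -0.31, TEAD2 -0.22 and AMOTL1 -0.20 among them), of 24 SRF targets 6 (FLNA -0.30, TPM2 -0.28, VCL -0.27) and of 11 other Kruppel-like factors 5 (KLF2 -0.45, KLF9 -0.41, KLF13 -0.36), with medians of -0.10, -0.16 and -0.26, where 20.0% of protein-coding genes were called lower. With library sizes alone these lower calls shrank to 0, 1 and 2, and 1 Hippo gene and 3 Kruppel-like factors were called higher. NUAK2, GADD45A, KLF9 and FLNA were called lower under each scaling and DESeq2. The response minus that of control cells called fewer of these genes. Lower were 1 YAP and TEAD target, 1 Hippo gene, 1 SRF target and 1 Kruppel-like factor, and 1 Hippo gene was higher. The medians were 0.0, -0.07, -0.06 and -0.22, and over all features 3696 were higher and 763 lower. Of 4 other CCN and thrombospondin genes tested, THBS3 (0.82) and THBS4 (0.41) rose, and the difference in response called 2 of the 4 higher. In polyA RNA auxin in DIS3-AID cells called fewer list genes. Lower were 1 of 15 YAP and TEAD targets and 2 of 18 SRF targets. Called in either direction were 0 of 19 Hippo genes, 0 of 6 Kruppel-like factors and 0 of 2 CCN and thrombospondin genes. Over all features 3.88% were called lower there.

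Between the untreated lines in the cytoplasm, 10 of the 19 other YAP and TEAD targets were called, 8 of them higher in DIS3-AID cells, where 9.67% of all features were, with a median of 0.06: the clotting initiator F3 (1.01) and ASAP1 (0.78) were higher and NUAK2 (-0.92) was lower. Called lower there were 12.4% of all features and 17.6% of protein-coding genes. Of 24 SRF targets 7 were lower and 1 higher, led by the immediate early factors FOSB (-2.05), EGR1 (-1.51) and IER2 (-0.61). Of the Hippo genes 4 were higher and 3 lower (AMOT -0.80, MOB1A -0.37, WWTR1, which encodes TAZ, -0.37), and of the Kruppel-like factors 2 were higher (KLF8 1.71, KLF14 0.70) and 3 lower (KLF11 -0.52). PolyA RNA differed in part. There 6 of 19 Hippo genes were higher and 0 lower, and 3 of 18 SRF targets were higher and 2 lower (medians 0.17 and -0.04). Of 15 YAP and TEAD targets 8 were higher and 1 lower, and of 6 Kruppel-like factors 1 was higher and 0 lower. Over all 16651 polyA features 1035 were higher and 941 lower.

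On chromatin 21 of 23 SRF targets were lower in untreated DIS3-AID than in control cells, where 17.4% of all features were, with a median of -0.53 (EGR1 -1.16, FOSB -0.98, ACTA2 -0.90); with library sizes alone 19 were, and FOSB was called in 3 of 4 settings of scaling and tool. Higher there were 15.2% of all features. Of the other YAP and TEAD targets 8 of 18 were lower and 5 higher (NUAK2 -1.09, RBMS3 -0.89, TGFB2 0.52), with a median of -0.15. Of 23 Hippo genes 8 were lower and 2 higher (AMOT -0.64, FRMD6 -0.53, TEAD1 -0.50), and of 11 Kruppel-like factors 4 were lower and 2 higher (KLF8 1.11, KLF13 -0.64, KLF9 -0.48). After auxin in DIS3-AID chromatin fewer were called, where 9.54% of all features were lower and 11.0% higher: 2 of the YAP and TEAD targets were lower and 3 higher (NUAK2 -0.46, TGFB2 -0.32, FJX1 0.41), 4 SRF targets were lower (FHL1 -0.30, TPM1 -0.27, FLNA -0.20), the Hippo genes SAV1 (0.34) and STK3 (0.22) were higher and KLF3 (-0.24) was lower. FJX1 was called in 2 of the 4 settings of scaling and tool. In control chromatin auxin called 9 of 23 SRF targets higher and 3 lower (median 0.16), where 2253 features were higher and 1989 lower. The response of DIS3-AID cells minus that of control cells was called lower for 6 SRF targets and higher for 1 (median -0.24). For YAP and TEAD targets 4 were higher and 2 lower in that test, where 2131 features were higher and 2298 lower.

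The genes whose pattern was most like the mean of the members over the 12 libraries of both total RNA sets, among 19778 ranked, were CSRNP1, PLK3, SERTAD1, BHLHE40 and DUSP5, with a smaller Pearson r of 0.97, 0.96, 0.96, 0.95 and 0.95; 39 genes had an r above 0.9 in both sets. These values describe libraries that share groups and depth.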

How the data were processed

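The authors deposited 1 table of raw read counts per library, with STAR 2.7.3a, Cufflinks 2.2.1, featureCounts 2.0.0 and build hg38 named in the submitters' processing notes; the kits are stranded per the labels, and the strand setting of counting is not given in the sources used here. Gene models were matched to GENCODE 29. Counts were tested with edgeR 4.0.16 in R 4.3.3 (TMM, filterByExpr with a minimum count of 10, robust quasi-likelihood fit, Benjamini-Hochberg adjustment over all features), in 5 models: 1 for each data set over its 12 libraries, 1 for both fractions and 1 for polyA and total RNA over 24 each; 21 comparisons were made. Simulated counts with known changes were used to check the scripts. Alternatives were RLE size factors, library sizes alone, DESeq2 1.42.0, no filter on low counts, the replicate number as a block and each library left out in turn. Same-numbered libraries were taken as paired where every pair's deviations correlated above 0.1: this held for auxin in control cytoplasm (r 0.189 to 0.403 over 3 pairs) and for the auxin response in polyA against total RNA (0.298 to 0.527 over 6). In both cases the main values come from fits without pairing, and the replicate block is given as an alternative. The polyA tables hold enhancer RNA regions and nearly only genes with a non-coding model. Named were the 9 members, the 3 genes of each list with the largest called change in the auxin and untreated line comparisons of total RNA, annotated neighbours within 5000 bases and the 5 genes most like the members. The members and lists were chosen with earlier results of these data known.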

Additional observations from a re-analysis of the deposited data

Results flagged for a closer look

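Each result here differed between lines or fractions in a test of the difference itself by edgeR's quasi-likelihood test across all features. The auxin response of DIS3-AID cells was lower than that of control cells for KLF6 in cytoplasm total RNA (log2 difference -0.55), on chromatin (-0.56) and in polyA RNA (-0.63). It was lower for THBS1 (-0.46) and KLF5 (-0.35) on chromatin and for CCN1 (-0.48) in polyA RNA.

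The auxin response of DIS3-AID cells was higher on chromatin than in cytoplasm for CCN1 (1.01), KLF10 (0.65), THBS1 (0.49), AMOTL2 (0.47), KLF4 (0.42) and KLF6 (0.36). The same contrast was not tested in control cells. With library sizes alone, CCN1 was the member that stayed called in it. The line difference without auxin was lower on chromatin than in cytoplasm for THBS1 (-0.47) and AMOTL2 (-0.33). Each of these calls held in 3 of the 12 fits that left out 1 library, and both were lost with library sizes alone.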

How the results depend on the processing

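The count of members called changed by more than 1.5 times in these cases. For auxin in control cytoplasm (0) it was 2 with DESeq2, 5 with no filter, 1 with the replicate block and 0 to 2 with 1 library left out; for the same in polyA RNA (0) it was 1, 2, 1 and 0 to 1. For the difference in response in the cytoplasm (1) it was 2 with DESeq2, 4 with no filter and 1 to 2 with 1 library left out. For the line difference on chromatin without auxin (5) it was 8 with no filter, and in polyA RNA (1) 2 with no filter, 2 with the replicate block (KLF6 added, where numbers do not pair the libraries) and 1 to 3 with 1 library left out. With 1 library left out, auxin gave 1 to 2 in DIS3-AID chromatin, 1 to 3 in control chromatin and 2 to 4 in DIS3-AID polyA RNA, where library sizes alone gave 2. For chromatin minus cytoplasm, the auxin response (6) gave 3 with RLE size factors, 1 with library sizes alone and 3 to 7 with 1 library left out, and the line difference (2) gave 0 with library sizes alone and 0 to 2. THBS1 in control chromatin against cytoplasm reversed to 0.16 with library sizes alone. The cause of these changes was not tested. Over all results the call and direction held in 160 of the DESeq2 values (7 gained a call, 1 lost it), 164 with RLE size factors (4 lost), 155 with library sizes alone (1 gained, 11 lost), 146 with no filter (22 gained) and 162 with the replicate block (5 gained, 1 lost). ANKRD1 is limited by depth, at under 0.5 CPM in every library.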
